A study of Caenorhabditis elegans with 2 samples.

Results

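The numbered cuticle collagen genes of Caenorhabditis elegans, named col with a number, form a large gene family. Every protein-coding gene of the Ensembl release 115 annotation of WBcel235 with such a symbol was taken, which gave 156 of 19973 nuclear protein-coding genes. The places where the nuclear hormone receptor NHR-43 was found by chromatin immunoprecipitation followed by sequencing (ChIP-seq) were read at these genes. The samples were 2 biological replicates of 1 group: whole L3 hermaphrodites of strain OP477, genotype unc-119(tm4063) III; wgIs477, collected 36.5 h after release from L1 starvation. The wgIs477 transgene carries NHR-43 with a GFP-FLAG tag at its C-terminus, and the precipitation used an anti-GFP antibody on chromatin sheared by sonication. The strain thus reads a tagged copy in animals that carry the unc-119(tm4063) allele. The promoter that drives the tagged copy was not stated in the labels, and whole larvae mix chromatin from all tissues. The files hold peak positions and signals only, so the labelled stage was not checked against expressed markers. With a single group there is no comparison between conditions, and the col genes are set beside all protein-coding genes measured in the same lists, as counts without a test.

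The cuticle is the worm's outer coat, made largely of collagens that the epidermis secretes and that enzymes trim and cross-link outside the cell. A new cuticle is built under the old one before each molt, and many collagen genes are switched on in pulses within each molting cycle. A cuticle collagen is short for a collagen: blocks of Gly-X-Y triplets, which wind into a triple helix, are flanked by cysteines. NHR-43 belongs to the nuclear hormone receptors, transcription factors that bind DNA through zinc fingers and whose family is greatly expanded in nematodes.

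The authors deposited 4 lists used here: a relaxed list of 29315 peaks for replicate 1, a relaxed list of 30000 peaks for replicate 2, a relaxed list of 30000 peaks from pooled reads, and a thresholded list of 3889 peaks. The thresholded list rests on an irreproducible discovery rate (IDR) cut, which scores how alike the ranks of peaks are between replicates. It holds 3870 nuclear peaks. Both replicates had a summit within 100 bp of 3022 of them (78.1%), so a listed peak need not have one from each. At the 15 col genes with a thresholded summit in the promoter window (defined below), signal and rank equalled those in the relaxed pooled list. Each peak has a summit, the position of its highest point, and a signal value that is the authors' own. The replicate lists each have their own scale, while the thresholded and relaxed pooled lists gave the same signals at those genes. Ranks within a list are therefore given beside the signal. The read depth of the libraries is unknown here, and signals are therefore printed with no interval. Genes and peaks are not replicates of a condition.

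The DNA at 9 summits is printed first: they are 9 of the 13 thresholded peaks in a col promoter window. Those at col-62, col-63, col-65 and col-144 are not printed. Among these, the 101 bp at col-63, the strongest col window peak, hold AGGTCA, and those at col-65 hold TGATAA. The window covered 1000 bp before the 5' end of a gene and the first 200 bp after it. The other peaks are described without letters. Each line is 101 bp centred on the summit, on the forward strand of WBcel235, 5′ to 3′. Capitals mark a short motif named further on, GAGAGA (or its reverse complement TCTCTC) or TGATAA, and a line without capitals holds none of the motifs searched.
col-185, chrX:13511935-13512035: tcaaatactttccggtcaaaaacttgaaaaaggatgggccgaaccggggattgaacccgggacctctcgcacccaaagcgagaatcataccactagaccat
col-2, chrIV:10085842-10085942: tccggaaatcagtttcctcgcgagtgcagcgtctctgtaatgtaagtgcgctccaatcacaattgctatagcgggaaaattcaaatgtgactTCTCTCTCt
col-38, chrII:8569482-8569582: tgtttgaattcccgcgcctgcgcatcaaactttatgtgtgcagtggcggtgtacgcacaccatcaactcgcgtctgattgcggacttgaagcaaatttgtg
col-10, chrV:9165366-9165466: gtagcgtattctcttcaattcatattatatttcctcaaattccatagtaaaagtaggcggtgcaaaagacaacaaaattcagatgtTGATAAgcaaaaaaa
col-90, chrIII:7948945-7949045: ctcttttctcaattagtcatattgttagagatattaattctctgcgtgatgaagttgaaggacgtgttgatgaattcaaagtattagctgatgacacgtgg
col-166, chrX:6279713-6279813: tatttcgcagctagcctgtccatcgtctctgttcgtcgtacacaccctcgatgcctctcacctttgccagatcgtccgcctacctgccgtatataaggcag
col-159 and col-160, chrV:13202255-13202355: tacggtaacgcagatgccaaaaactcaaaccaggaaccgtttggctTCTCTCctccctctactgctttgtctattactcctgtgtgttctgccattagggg
col-41, chrX:15176566-15176666: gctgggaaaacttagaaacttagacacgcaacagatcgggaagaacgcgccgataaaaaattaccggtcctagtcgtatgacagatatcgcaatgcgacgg
col-3 and col-117, chrIV:8824433-8824533: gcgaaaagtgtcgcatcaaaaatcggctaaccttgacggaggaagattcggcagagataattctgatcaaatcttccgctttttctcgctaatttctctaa

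The lines differ in kind. The col-185 stretch overlaps a tRNA gene, the col-90 stretch is centred on a coding exon of col-90 itself, and the line for col-2 ends in a run of TCTC repeats. The lines for col-159 and col-160 and for col-3 and col-117 each stand for 1 peak that lies before a pair of col genes. G+C content within 75 bp of the summit had a median of 43% (SD 6.61 over the 13 col window peaks), against a median of 43% (SD 6.89) over all 1645 peaks in promoter windows.

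The col genes as a family carried thresholded NHR-43 peaks in their promoter windows about as often as genes at large. A summit lay in the window of 15 of 156 col genes (9.62%), against 10.1% of all protein-coding genes (2010 of 19973). The order turned in a wider window of 2000 bp before to 500 bp after the 5' end, with 17.3% of col genes against 13.7% of all genes, and when the whole peak interval was taken in place of its summit, with 18 col genes (11.5%) against 10.7%. By the nearest 5' end within 2000 bp, 24 of 156 col genes (15.4%) received a peak, against 10.8% of all genes (2166). Both assignments held for 11 col genes, 4 had a peak in the window only (col-2, col-3, col-38 and col-62), and 13 by nearest 5' end only. Of the 156 genes, 128 had neither, a count that was not made over all genes. The 28 with either held 35 distinct peaks: 20 genes had 1 peak, 7 had 2, and col-54 had 3.

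In the relaxed lists, which hold weak and strong peaks alike, the family stood at or above the background. In the relaxed pooled list, 65 col genes (41.7%) had a summit in the window, against 34.8% of all genes (6951). In the relaxed lists of the replicates, 58 col genes (37.2%) had one in replicate 1, against 36% of all genes, and 67 (42.9%) in replicate 2, against 35.2% of all genes. Summits of both replicates within 100 bp of each other lay in the windows of 27 col genes (17.3%), against 14.2% of all genes (2844). Among the 3889 highest peaks of a single replicate the order turned: 12 col genes (7.69%) had one in replicate 1, against 9.81% of all genes (1959), and 10 (6.41%) in replicate 2, against 9.52% of all genes (1901). Only 6 col genes had one in both replicates' highest peaks, col-38, col-63, col-144, col-159, col-160 and col-185, and all 6 were in the thresholded list. Over all genes 1378 (6.9%) did. No relaxed summit lay in the window of 63 col genes in any of the 3 relaxed lists, a count that was not made over all genes.

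**Figure D1:**
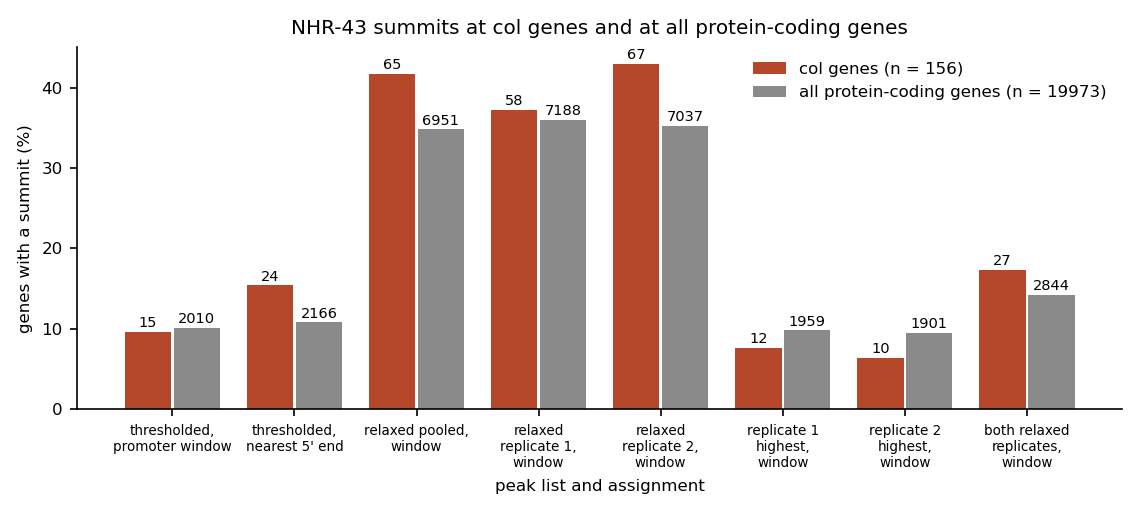
Share of genes (percent, vertical axis) with an NHR-43 summit, for 156 col genes (left bar of each pair) and 19973 protein-coding genes (right bar), by peak list and assignment; numbers above bars are gene counts. The col bar is higher by nearest 5' end (15.4% against 10.8%) and in the relaxed lists, and lower among the highest peaks of each replicate.

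Where the peaks did lie in col windows, they were of middling strength. The 13 distinct peaks had thresholded signals of 63.7 to 217.7 with a median of 126.3, against a median of 119.7 for all 1645 peaks in promoter windows, whose highest reached 2066.4. Of those 1645 peaks, 351 (21.3%) had a higher signal than the strongest col window peak. The middle of the col peaks ran from 94.7 to 146.1 (quartiles), against 81.9 to 196.4 for all window peaks. Both replicates had a relaxed summit within 100 bp of 9 of the 13 col peaks (69.2%), against 1364 of 1645 (82.9%) of all window peaks. Within 250 bp they had one at 12 of the 13 (92.3%), against 94% of all window peaks.

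The peak before col-63 was the strongest in a col window, with a signal of 217.7 (rank 702 of the list), 554 bp upstream of the 5' end. Its summit lay in the 3' UTR of ceh-8, a homeobox gene. Replicate 1 gave it 109.4 (rank 380), while the closest replicate 2 summit was 129 bp away and the highest one in the window had 68.6 (rank 1732). The col-185 peak had a signal of 189 (rank 891), 888 bp upstream, with 49.2 in replicate 1 (rank 1170) and 124.0 in replicate 2 (rank 696). Its summit lay inside a tRNA gene. At col-65 the signal was 126.3 (rank 1622), 917 bp upstream, with 15.6 in replicate 1 (rank 4602) and 73.1 in replicate 2 (rank 1596). The 3 are the members nearest to the upstream edge from inside, and only at col-185 did both replicates place a summit within 100 bp among their highest 2000 peaks.

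Some of the window peaks sat in front of a col gene and another gene at once. The col-2 peak (signal 178, rank 979) lay 441 bp upstream of col-2 and only 245 bp from the 5' end of ndc-80, which encodes a kinetochore protein; replicate 1 gave it 23.4 (rank 2784) and replicate 2 had no summit within 100 bp. The col-38 peak (146.1, rank 1332) lay 444 bp upstream of col-38 and 395 bp from the 5' end of rpl-5, a gene for a large-subunit ribosomal protein, with 27.2 in replicate 1 (rank 2344) and 112.2 in replicate 2 (rank 837). The col-62 peak, the weakest at 63.7 (rank 3703), lay 504 bp upstream of col-62 and 72 bp from C15A11.7, with 27.0 in replicate 1 (rank 2362) and 17.9 in replicate 2 (rank 10027). In each of the 3 cases the other gene's 5' end was closer, so by nearest 5' end the peak belonged to that gene. In all, 5 of 13 col window peaks (38.5%) fell in the window of another gene as well, against 442 of 1645 (26.9%) of all window peaks.

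The other 2 shared peaks lay before pairs of col genes. The neighbours col-3 and col-117 are transcribed away from each other, and a single peak of signal 70.8 (rank 3265) lay between them, 300 bp upstream of col-3 and 288 bp upstream of col-117. Replicate 1 gave it 17.6 (rank 3946) and replicate 2 gave it 35.4 (rank 3968), so it stood at a like rank in both. The genes col-159 and col-160 overlap on the same strand, and their annotated 5' ends were reached by 1 peak of signal 94.7 (rank 2347), 128 bp upstream of col-159 and 116 bp upstream of col-160. It had 31 in replicate 1 (rank 2046) and 74.1 in replicate 2 (rank 1565). A second col-159 peak, in an intron 1536 bp downstream of its 5' end, was weaker at 67.9, with 14.9 in replicate 1 and 20.9 in replicate 2.

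Among the peaks closest to a col 5' end was that of col-10, 109 bp upstream with a signal of 145.5 (rank 1338). It ranked 862 in replicate 1 (signal 61.9) but 5469 in replicate 2 (signal 27.9). Another peak lay 107 bp past the 3' end of col-10, 1122 bp from its 5' end, with a signal of 111.2 (65.7 in replicate 1 and 22.6 in replicate 2); it was also 1180 bp upstream of the next gene, col-145. The third gene of that neighbourhood, col-144, had its summit 33 bp downstream of the 5' end, in coding sequence, with a signal of 124.1 (rank 1659). That peak had 90 in replicate 2 (rank 1187), and replicate 1's closest summit was 150 bp away, the highest in the window having 18.7 (rank 3633). So col-144 and col-10 carried window peaks and col-145, between them, did not, with a relaxed pooled signal of 39.3 in its own window. The ranks of the pair ran in opposite ways between the replicates.

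Both peaks of col-166 lay outside the gene. The upstream one, 253 bp before the 5' end, had a signal of 99 (rank 2211), with 15.6 in replicate 1 (rank 4596) and 73.8 in replicate 2 (rank 1575). The downstream one, 222 bp past the 3' end, was stronger at 147.7, and only replicate 2 had a summit within 100 bp (59.4). The next gene, col-167, had a peak of 82.8 at 516 bp past its 3' end (10.9 in replicate 1 and 48.5 in replicate 2), which is also 1479 bp upstream of col-168. At col-168 itself the window held a relaxed pooled signal of 48.2. At all 3 of these peaks replicate 2 had the higher rank, or the only summit.

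The genes col-41 and col-90 each had a peak over their own coding sequence. The col-90 peak had a signal of 133.7 (rank 1515) with its summit in a coding exon 157 bp downstream of the 5' end, and had 21.4 in replicate 1 (rank 3071) and 94.1 in replicate 2 (rank 1104). That replicate 2 summit was 75 bp from the pooled one and outside the promoter window, where replicate 2 had no summit. The second col-90 peak was far stronger, 329.1 (rank 329), and stood high in both replicates, with 137.0 in replicate 1 (rank 280) and 193.3 in replicate 2 (rank 317), but lay 567 bp past the 3' end in a coding exon of let-754, an adenylate kinase gene. The gene col-41 lies inside ucr-2.2, which encodes a subunit of the mitochondrial cytochrome bc1 complex. Its peak 135 bp upstream had a signal of 80.8 (rank 2807), and that in its coding exon 343 bp downstream had 66. Neither had a replicate 1 summit within 100 bp, although one of 56.5 (rank 973) lay elsewhere in the window, and replicate 2 gave the upstream peak 35.7 and the exonic one 45.9.

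**Figure D2:**
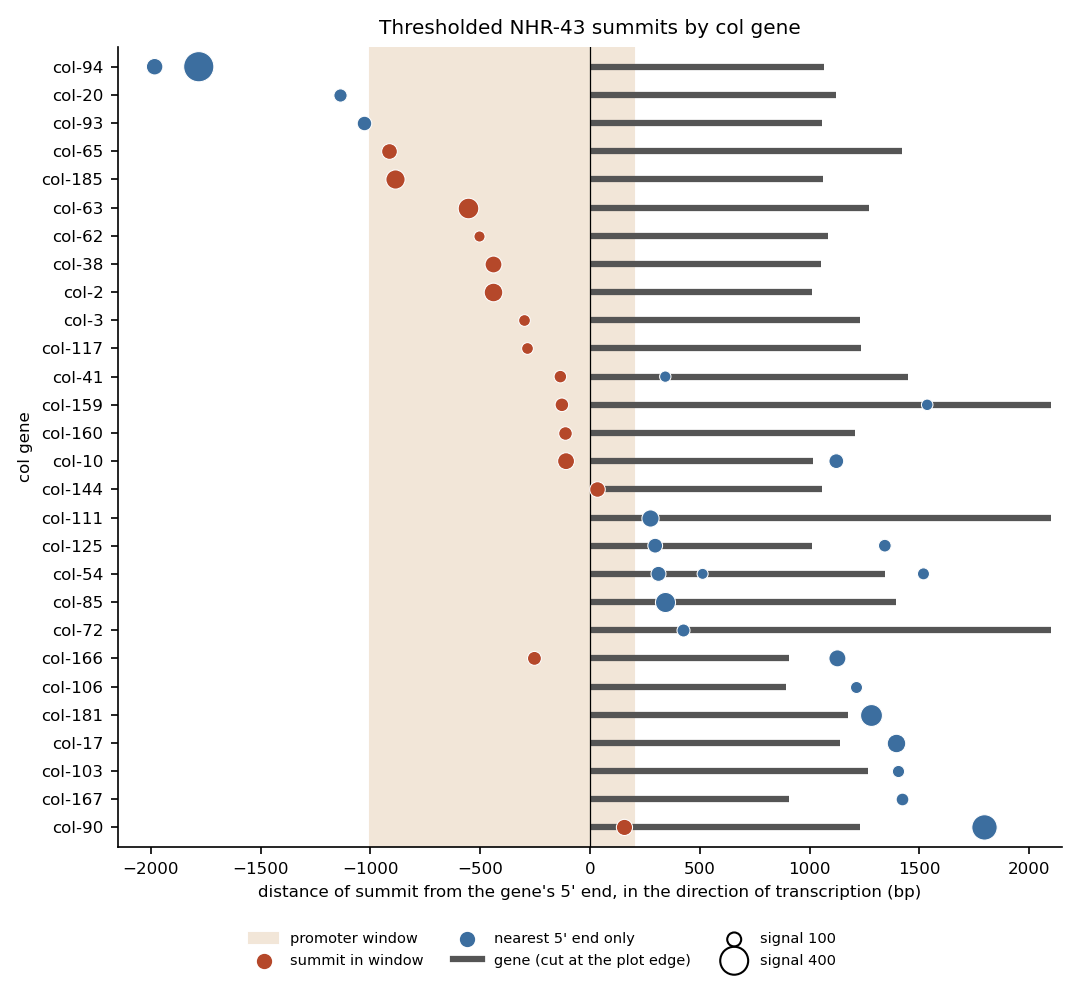
Distance of each thresholded NHR-43 summit (circles, area proportional to signal) from the 5' end of its col gene (horizontal axis, bp, positive downstream), for the 28 col genes with a peak by either assignment; grey bars are gene bodies and the shaded band is the promoter window. The 2 largest circles, at col-94 (signal 466.7) and col-90 (329.1), lie outside the window.

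The 3 strongest peaks assigned to col genes were outside the promoter window, and several lay at genes for small noncoding RNAs. The 101 bp at 3 such summits are printed in the same way, again on the forward strand of WBcel235. Capitals mark TATAAA at col-94, GGGCGG (the reverse complement of CCGCCC) at col-181 and TCTCTC at col-85.
col-94, chrIII:10989605-10989705: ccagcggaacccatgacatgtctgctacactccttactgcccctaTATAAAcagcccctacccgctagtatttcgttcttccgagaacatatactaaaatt
col-181, chrX:12106160-12106260: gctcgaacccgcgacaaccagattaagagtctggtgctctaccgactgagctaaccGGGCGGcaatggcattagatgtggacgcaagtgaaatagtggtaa
col-85, chrII:12494702-12494802: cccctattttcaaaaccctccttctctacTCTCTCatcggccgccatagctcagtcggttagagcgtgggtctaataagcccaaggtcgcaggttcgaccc

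The col-94 peak had the highest signal of any assigned to a col gene, 466.7 (rank 167), with 174.2 in replicate 1 (rank 192) and 232.2 in replicate 2 (rank 225). It lay 1782 bp upstream of col-94, in an intron of dhc-4, a dynein heavy chain gene that contains col-92, col-93 and col-94, and 24 bp from the snRNA gene R07E5.16. A second summit in the same peak interval, 1983 bp upstream, had 139.2, with 78.8 in replicate 2 and no replicate 1 summit within 100 bp. The neighbour col-93 had a peak of 108.3 at 1028 bp upstream, just outside the window, with 8.1 in replicate 1 (rank 10819) and 52.3 in replicate 2 (rank 2466). The third, col-92, had no thresholded peak by either assignment.

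The peak of col-181 had a signal of 244.3 (rank 585), with 89.2 in replicate 1 (rank 520) and 120.5 in replicate 2 (rank 736). Its summit was 108 bp past the 3' end of the gene and inside a tRNA gene. The peak of col-85 had a signal of 206.5 (rank 777), with 57.3 in replicate 1 (rank 952) and 93.9 in replicate 2 (rank 1111), and its summit lay in an intron of col-85 that holds a tRNA gene, inside that tRNA gene. With col-185 these make 3 of 35 col peaks (8.57%) whose summit lay inside a tRNA gene, against 103 of 3870 nuclear peaks (2.66%). Within 500 bp of a tRNA gene were 5 col peaks (14.3%), the other 2 both at col-54, against 254 (6.56%). With tRNA-near peaks left out, the count by nearest 5' end was 21 of 156 col genes (13.5%), against 10.2% of all genes. Whether these summits belong to the col gene or to the tRNA gene was not tested.

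At col-54 the 3 peaks had signals of 115.2 in a coding exon, 62.5 in an intron and 74 at 178 bp past the 3' end. The exon summit had 50.4 in replicate 1 and no replicate 2 summit within 100 bp, while the intron summit had 6.1 in replicate 1 and 55.4 in replicate 2. The last had 20.1 in replicate 1 and 10.9 in replicate 2. Each replicate thus placed the stronger summit at another position in this gene.

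The remaining genes with a peak by nearest 5' end only had signals of 74.1 to 174.9, all seen in replicate 2. The gene col-17 had the highest of these, 174.9 (rank 1003), 255 bp past its 3' end, with 74.6 in replicate 1 and 94.0 in replicate 2. The peak at col-111 (151.7) was in the 5' UTR, 274 bp downstream of the annotated 5' end, with 36.3 in replicate 1 and 76.0 in replicate 2. The peak in the coding exon of col-125 (111.6) had 27.2 in replicate 1 and 39.2 in replicate 2. Those of col-17 and col-111 were within the first 2000 peaks of both replicates, and that of col-125 was lower in both lists. A second col-125 peak, in an intron of the bestrophin gene best-7, had 82.5, with 6.5 in replicate 1 and 64.1 in replicate 2.

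The peaks of 4 more genes had signals of 74.1 to 89.7. The col-20 peak, 1139 bp upstream, had a signal of 89.7, with 46.2 in replicate 1 and 27.2 in replicate 2. The col-72 peak, in an intron 424 bp downstream, had 86.7, with 16.4 in replicate 1 and 38.3 in replicate 2. The gene col-106 had 74.1 at 322 bp past its 3' end, with 22.3 in replicate 1 and 28.6 in replicate 2. At col-103 the summit fell in a coding exon of gst-40, a glutathione S-transferase gene, with a signal of 76, and only replicate 2 had a summit within 100 bp (66.1). None of the 4 ranked among the first 1000 peaks of either replicate.

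Over the 35 peaks, 26 (74.3%) had a summit of both replicates within 100 bp, against 78.1% of all nuclear peaks; 6 lacked one in replicate 1 and 3 lacked one in replicate 2. Of the 26, 14 ranked higher in replicate 1 and 12 in replicate 2. Of the 35, 7 (20%) were among the first 1000 thresholded peaks, against 981 of 3870 nuclear peaks (25.3%).

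**Figure D3:**
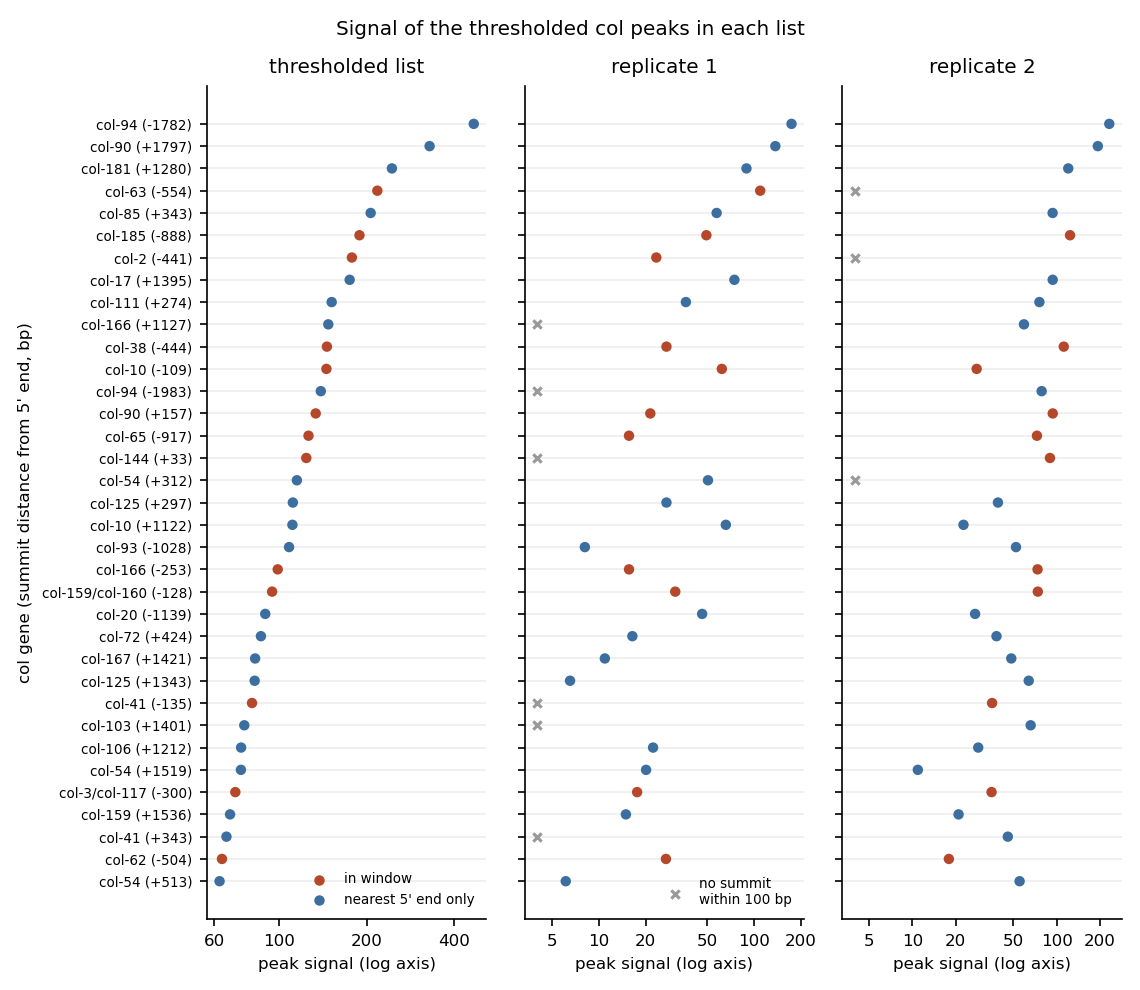
Signal (horizontal axis, log scale, the authors' units) of the 35 thresholded peaks at col genes in the thresholded list, in replicate 1 and in replicate 2, ordered by thresholded signal; a cross marks a replicate with no summit within 100 bp, and its place on the axis has no value. The 3 strongest peaks stand high in both replicates, and the crosses (6 in replicate 1 and 3 in replicate 2) are spread over the order.

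A smaller share of the col peaks lay upstream of the gene, and a larger share past its 3' end, than for genes at large. Of the 32 peaks assigned by nearest 5' end, 12 (37.5%) lay upstream of the 5' end, 10 (31.2%) within the gene and 10 (31.2%) past the 3' end. Of 2650 such assignments over all genes, 66.6% were upstream, 26.1% within the gene and 7.32% past the 3' end. The median summit lay 304.5 bp downstream of the 5' end at col genes, against a median of -157 bp, that is upstream, over all genes. Col genes are short, with a median length of 1220 bp against 2027 bp for all protein-coding genes, so the distance to a 3' end is small. Among genes under 1500 bp the col genes (29 assignments) had 41.4% upstream, 24.1% within and 34.5% past the 3' end, against 62.3%, 18% and 19.7% over all genes of that size (848 assignments). A peak was assigned to 18.6% of the 113 col genes of that size, against 9.64% of all 6917.

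**Figure D4:**
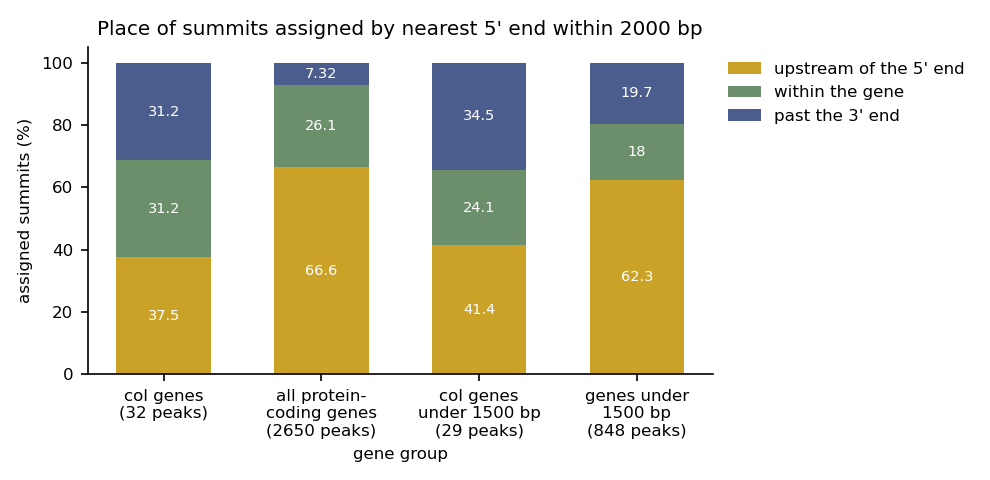
Place of the summits (percent of assignments, vertical axis) assigned by nearest 5' end within 2000 bp, for col genes and all protein-coding genes, and for those of each under 1500 bp. Past the 3' end lay 31.2% of col summits against 7.32% over all genes, and 34.5% against 19.7% among genes under 1500 bp.

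By annotation, 17 of the 35 summits lay between genes, 8 in coding exons, 8 in introns, 1 in a 5' UTR and 1 in a 3' UTR. Sequence that occurs more than once lets a read fit more than 1 place. The 201 bp around each summit was searched in the genome, and 6 of the 35 had another match of at least 100 bp at 90% identity or more, at col-72, col-93, col-94, col-125, col-181 and col-185. Of these only the col-125 summit lies in a coding exon of a col gene; those at col-72, col-93 and col-94 are in introns, those at col-181 and col-185 are in tRNA genes, and the best matches of these 5 lie outside col genes. The match at col-125 was 94.0% identical over 201 bp to a stretch inside col-3, and that at col-72 had 7 copies, the best 97.4% over 117 bp. The exonic col-41 summit matched col-90 at 81.1% over 196 bp, and that of col-144 matched col-10 at 81.8% over 165 bp. How the authors' mapping treated reads that fit several places was not stated in the labels. The 101 bp at the col-125 and col-41 summits in coding exons are printed to show this shared coding sequence, on the forward strand of WBcel235, with capitals on AGGTCA and on CCGCCC at col-125, and on GAGAGA at col-41.
col-125, chrIV:11225753-11225853: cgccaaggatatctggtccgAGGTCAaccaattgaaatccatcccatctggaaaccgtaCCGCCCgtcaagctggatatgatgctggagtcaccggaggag
col-41, chrX:15176088-15176188: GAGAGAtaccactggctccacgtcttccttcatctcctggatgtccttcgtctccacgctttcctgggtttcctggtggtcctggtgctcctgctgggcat

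The position of the genes on the chromosomes was read as well. Clusters were common: 50 col genes had the 5' end of another col gene within 5000 bp, and 7 of them (14%) had a window peak and 10 (20%) a peak by nearest 5' end. The 7 rest on 5 distinct peaks, since col-3 with col-117 and col-159 with col-160 share 1 each. Of the 106 others, 8 (7.55%, on 8 distinct peaks) and 14 (13.2%) did, and of all protein-coding genes 10.1% and 10.8%. On the X chromosome 5 of 27 col genes (18.5%) had a peak by nearest 5' end, against 14.7% of all genes there, and on the autosomes 19 of 129 (14.7%), against 10.2%. Of the 156 genes, 22 lie wholly inside another protein-coding gene. By either assignment 3 of these, col-41, col-93 and col-94, had a peak, against 28 of all 156 col genes. Genes inside another gene were not counted over all protein-coding genes.

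Most col genes were weakly or not marked in their window, as were most genes at large. A relaxed pooled summit lay in the window of 41.7% of col genes, against 34.8% of all genes. The 65 with a relaxed pooled summit there had best signals from 9.7 to 217.7 with a median of 26.2, against a median of 30.1 for the 6951 genes of the whole set. Among col genes without a thresholded summit in the window, 15 had summits of both replicates there within 100 bp of each other. Not all of the 15 had a pooled summit there, and the count was not made over all genes. The highest of the 15 in the pooled list was col-91 with 54.1 (11.7 in replicate 1 and 23.2 in replicate 2). It was followed by col-39 with 49.1 (15.7 and 33.8 in replicates 1 and 2), col-168 with 48.2 (6.0 and 26.1), col-97 with 43.8 (5.5 and 25.4) and col-147 with 42.1 (5.2 and 26.4). All 5 signals are below the lowest thresholded nuclear peak, 61.4. That order follows from the choice of genes without a thresholded summit, since the thresholded and pooled lists gave equal ranks at the col windows. In these 5 genes the signal in replicate 2 was the larger number, on that list's own scale.

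**Figure D5:**
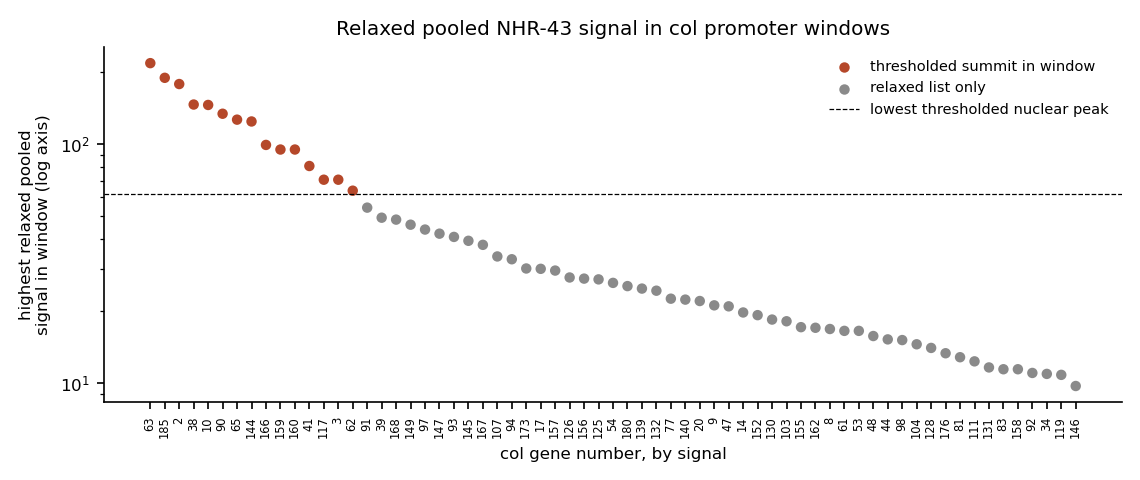
Highest relaxed pooled signal in the promoter window (vertical axis, log scale, the authors' units) of the 65 col genes with such a summit, ordered by signal, with the gene number on the horizontal axis; the dashed line is the lowest thresholded nuclear peak (61.4). The 15 genes with a thresholded summit lie above the line, as they must, since the line is the lowest thresholded nuclear peak.

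For col-19, known as a collagen of the adult cuticle, the window held a relaxed summit in replicate 2 only, with a signal of 16.4 (rank 11275). For col-99, which encodes a transmembrane collagen and not a secreted cuticle collagen, none of the relaxed lists had a summit in the window, and the closest thresholded summit was 3872 bp downstream of its 5' end, within this gene of 9946 bp. The gene col-71 had a peak of 103.6 (rank 407) in replicate 1's window and no summit there in replicate 2 or in the pooled list.

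At the window edges, inside the upstream edge were col-65 (917 bp), col-185 (888 bp) and col-63 (554 bp), and outside it col-93 (1028 bp), col-20 (1139 bp) and col-145 (1180 bp). On the downstream side col-90 (157 bp) and col-144 (33 bp) were inside, and col-111 (274 bp), col-125 (297 bp) and col-54 (312 bp) were outside. The 2 edges thus split signals of 126.3 to 217.7 from signals of 89.7 to 111.2 upstream, and 124.1 and 133.7 from 111.6 to 151.7 downstream.

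Other genes of the cuticle were read in the same way from lists chosen with results of these data known. Of 20 cuticle collagens named for mutant shape (dpy, rol, sqt, bli and lon genes), 9 (45%) had a thresholded summit in the window and 11 (55%) by nearest 5' end, against 9.62% and 15.4% of the numbered col genes and 10.1% and 10.8% of all protein-coding genes. The highest window signals were at dpy-10 with 180.8 (370 bp upstream), rol-6 with 153.6 (270 bp upstream) and sqt-2 with 108.9 (201 bp upstream). All 3 encode cuticle collagens that set body shape. By nearest 5' end the dpy-10 peak belonged to another gene. Among 10 genes for collagen modification and processing, 3 (30%) had a window summit, against 10.1% of all genes: dpy-11 (249.3), a thioredoxin-like protein, dpy-31 (137.2), a collagen-processing protease, and pdi-2 (95.3), a subunit of prolyl 4-hydroxylase. Among 12 epidermal regulators, 5 (41.7%) did, against the same 10.1%, with the highest signals at myrf-1 (175.2), a factor that acts in molting and development, at nhr-25 (96.6), a nuclear hormone receptor of the epidermis, and at lin-26 (77.6), a zinc-finger factor of epidermal fate.

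Short motifs were counted on both strands within 75 bp of the summits, which are windows of 151 bp. GAGAGA was in 2 of 13 col window peaks (15.4%) and 7 of 35 col peaks of either assignment (20%), against 25.8% of all 1645 window peaks and 26.8% of all 3870 nuclear peaks. AGGTCA, a nuclear receptor half-site, was in 2 of 13 (15.4%) and 5 of 35 (14.3%), against 5.41% of all window peaks and 5.71% of all nuclear peaks. The motif TGATAA, a site of the GATA type, was in 3 of 13 (23.1%) and 5 of 35 (14.3%), against 12.3% of all window peaks and 16.5% of all nuclear peaks. Counts of 2 to 5 peaks are too few to set against these shares. The extended half-site TCAAGGTCA, which contains AGGTCA, was in none of the col peaks and in 0.0608% of all window peaks, and CTGCGTCTC was in none of the col peaks and in 7.9% of all window peaks. The motif CCGCCC was in 2 of 35 col peaks (5.71%), against 7.26% of all nuclear peaks, and TATAAA in 4 of 35 (11.4%), against 10.1%. None of the 13 col window peaks held CTTTCNCT, against 5.9% of all window peaks. Over either assignment 1 of 35 did (2.86%), against 7.05% of all nuclear peaks, again too few to set against these shares.

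The promoters themselves, the 250 bp before and 50 bp after the 5' end, held some of these motifs more often in col genes than in genes at large. TATAAA, the core of a TATA box, was in 66% of the 156 col promoters, against 37.9% of all promoters. CTTTCNCT was in 15.4%, against 6.61%, CCGCCC in 16%, against 7.83%, and AGGTCA in 13.5%, against 8.27%. GAGAGA was in 26.9%, against 21.8%, and TGATAA in 29.5%, against 30.2%. The col promoters had a median G+C content of 38%, against 34.3% of all promoters.

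The proteins of all 156 genes were computed from the annotation and read with a median of 304 residues (154 to 740) and 51 Gly-X-Y triplets, counted in runs of 3 or more. Those of the 28 genes with a peak had a median of 301 residues and 51.5 triplets. In this annotation the coding sequence of col-17 holds 0 triplets, while the RefSeq model of the gene gives 283 residues with 51.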

How the data were processed

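NHR-43 ChIP-seq of whole L3 larvae was analysed from 4 deposited peak lists on ce11, another name of WBcel235, of 2 biological replicates. The signal value of each peak was set by the authors and is used as deposited, to order peaks inside 1 list. The only signals set side by side across lists are those of the pooled and thresholded lists, which were equal at the col windows. Per the deposited file descriptions, a control alignment was among the inputs and the thresholded list derives from the replicate and pooled lists. The sources used here do not name the aligner or the peak caller and give no read depths, and the control libraries were not analysed here. The ce10 lists were not used.

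Summits were assigned by windows of 1000 bp upstream to 200 bp downstream of the 5' end, and by nearest 5' end within 2000 bp, with Python 3.11.15, numpy 2.4.6 and pandas 2.3.3, on WBcel235 with the Ensembl release 115 annotation; the code placed 200 of 200 simulated summits correctly. Replicate summits within 100 bp were matched. Genome sequence came from RefSeq's WBcel235 FASTA, whose reading frames at all 156 col genes start with ATG. Copies were searched with blastn 2.17.0+ over 201 bp. The genes named are every col gene with a thresholded summit by either assignment, the 5 highest weaker ones, those nearest the window edges, neighbours sharing a peak, col-19 and col-99; col-71, col-92 and col-145 were chosen after their values were seen. The members and lists were chosen with earlier results of these data known. No p-value was computed, since the samples form 1 group.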

Additional observations from a re-analysis of the deposited data

How the results depend on the processing

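The shares of col genes rest on the window, the nearest-end distance and the threshold. In the window the main count was 15 genes (9.62%). It was 27 (17.3%) with a window of 2000 bp upstream to 500 bp downstream and 65 (41.7%) with the relaxed pooled list. With the peaks of above-median signal it was 8 (5.13%, against 5.85% of all genes). Taking 1 replicate's highest peaks in place of both gave 10 to 12 genes (6.41% to 7.69%). By nearest 5' end the main count was 24 genes (15.4%, against 10.8% of all genes). It was 15 within 1000 bp (9.62% against 8.77%) and 12 within 500 bp (7.69% against 6.92%). With those stronger peaks it was 14 (8.97% against 6.05%), and with the relaxed list 87 (55.8% against 44.6%). It was 20 with replicate 1's highest peaks (12.8% against 10.9%) and 24 with replicate 2's (15.4% against 10.7%). Window counts stayed below the share of all genes at a window of 500 bp upstream to 100 bp downstream (10 genes, 6.41% against 7.69%), and lay above it at the wider window (17.3% against 13.7%), with the whole peak interval in place of the summit (18 genes, 11.5% against 10.7%) and with the relaxed list (41.7% against 34.8%), so the sign of that comparison depends on these 3 choices. The median window signal of 126.3 was 111.5 with the narrower window and 111.6 with the wider. Both replicates had a summit within 100 bp of 9 col window peaks (69.2%, against 82.9% of all window peaks). Within 50 bp it was 5 (38.5%, against 63%), and within 250 bp 12 (92.3%, against 94%). Without peaks near tRNA genes, 14 genes had a peak by window (8.97%, against 9.75% of all genes). By nearest 5' end 21 did (13.5% against 10.2%). No paired analysis was possible because the samples form 1 group. Depth is unknown, so weak peaks near the threshold cannot be given an error.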
